A study of Gossypium hirsutum with 12 samples.

Results

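The comparison described here is heat in 1 cotton cultivar, Sicot 53, and rests on 6 of the series' 12 Affymetrix Cotton arrays. These are the 3 arrays titled 42 and the 3 titled 32 C for Sicot 53, and every difference is 42 °C minus 32 °C. The plants were upland cotton (Gossypium hirsutum) grown in field soil, and the RNA came from all cells of the leaf that was the third youngest among the fully expanded ones, taken at the first square, when the first flower buds show. Both groups first spent 4 d in a growth cabinet with days of 32 °C and nights of 25 °C. The 32 °C group then stayed under those conditions, and the 42 °C group had days of 42 °C at 67% relative humidity and nights of 25 °C at 40%, with ample water. The heated plants followed the control plants in the cabinet, so temperature and cabinet run cannot be told apart. The labels speak of 3 leaf tissue samples a group and leave unsaid whether separate plants gave them. The p-values therefore reflect only the spread among these samples, which may be technical. In whole-leaf RNA, fewer cells of a type and less RNA per cell cannot be told apart. The other 6 arrays are of the cultivar Sicala 45 under both temperatures and serve here to estimate the spread and as a second set of heated and control leaves.

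Cotton is a warm-season crop whose leaves cool themselves by transpiration. In plant leaves, heat is known to unfold proteins and to limit carbon fixation, in part because Rubisco activase, the enzyme that keeps Rubisco active, is heat-labile. Heated leaves switch on heat shock factors and chaperones and also engage transcription factors of the NAC, AP2/ERF and RAV families and hormone pathways such as ethylene and abscisic acid. No probe set named as a heat shock protein or a heat shock factor was among those with a gene name, so those groups are not analysed here.

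The table holds 24029 probe sets beside the 103 control probe sets, and 16820 of them, the brighter 70%, were tested, with 7209 left out as dim. Signals are MAS5 values on a linear scale, with the same trimmed mean of 500 on each array and medians on the Sicot 53 arrays between 86.4 and 110. Of the probe sets tested, 581 have 1 gene symbol, and 258 of these also have a gene name, from 206 names. Log2 levels of 2 arrays correlated across all 24029 probe sets at r between 0.944 and 0.967 within 32 °C, between 0.946 and 0.971 within 42 °C and between 0.919 and 0.962 across temperatures, as a description across probe sets.

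On 2 arrays the values stood apart in ways that touch the results. At 42 °C, the 3'/5' signal ratio of the ubiquitin control gene ubq11, a measure that is raised when transcripts are shortened from the 5' end, was 7.99, 41.5 and 13.4 in replicates 1, 2 and 3, against 6.39, 5.16 and 4.73 at 32 °C. Replicate 2 at 42 °C was thus far above the other 5 arrays, and the groups did not overlap (3.06-fold, exact two-sided permutation test, p = 0.1, the smallest that 3 arrays against 3 allow). The 3' signal itself was higher at 42 °C, at 4556, 4829 and 4472 against 2123, 3245 and 1929 at 32 °C. The 5' signal was 570, 116 and 333 at 42 °C and 332, 629 and 408 at 32 °C. It thus lay below the control range on heated replicate 2 alone, so the ratio does not show shortening on the whole heated group. The same ratio for actin was 6.02, 18.6 and 7.84 at 42 °C and 12.1, 12.6 and 8.18 at 32 °C, with overlapping groups (exact permutation p = 0.8). The poly-A spikes, bacterial transcripts added before labelling, had mean signals of 731, 979 and 931 at 42 °C and 571, 762 and 553 at 32 °C (1.39-fold, exact permutation p = 0.2).

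The other array is replicate 2 at 32 °C. At the 193 probe sets that passed the threshold upward in Sicala 45, a choice made by the means of that cultivar's own arrays, this control array was the highest of the 3 at 141, or 73.1%, where over all tested probe sets it was the highest at 37.2%. Its level there was a median of 0.43 log2 units above the mean of the other 2 controls. At the 111 probe sets that passed downward in Sicala 45, it was the lowest of the 3 at 70, or 63.1%, where over all tested probe sets it was the lowest at 35.8%. Its level there was a median of 0.26 log2 units below the others. Replicate 2 of the controls thus lay on the heated side of its group at heat-responsive probe sets. Counts without each of these arrays are given with the results.

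**Figure D1:**
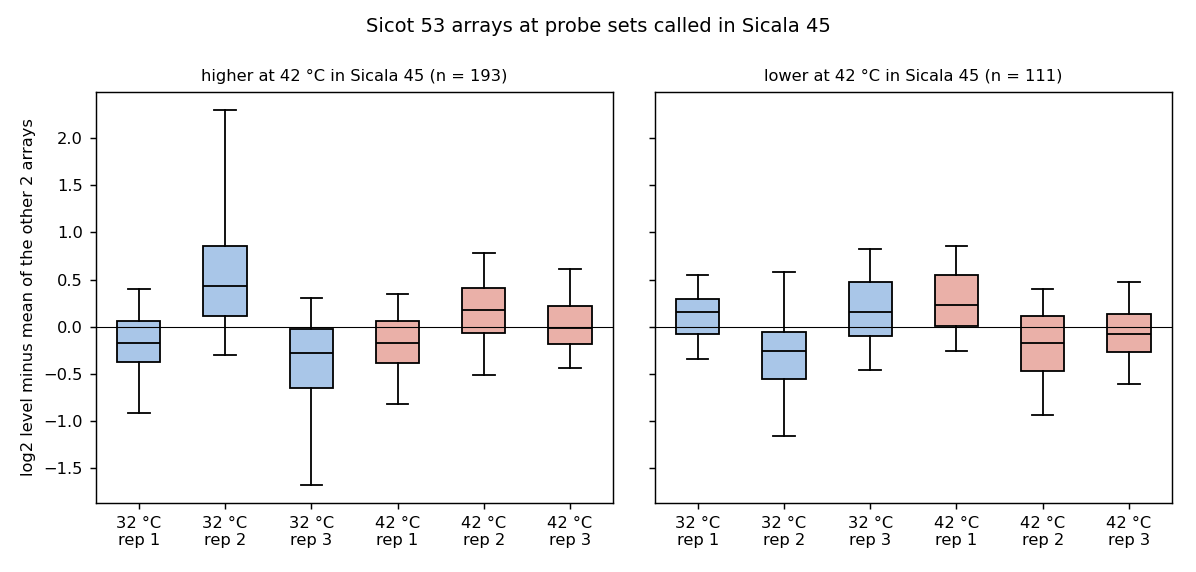
Level of each Sicot 53 array, as log2(signal + 16) minus the mean of the other 2 arrays of its group, at the probe sets that passed the threshold in Sicala 45 (boxes: quartiles and median; whiskers: 5th to 95th percentile; blue 32 °C, red 42 °C). Replicate 2 at 32 °C lies above the other controls where Sicala 45 rose (median 0.43) and below them where it fell (median -0.26).

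In the unweighted model of all 12 arrays, a small share of the leaf transcripts was called, mostly as rises. Of 16820 tested probe sets, 228 (1.36%) passed an adjusted p of 0.05 (limma, Benjamini-Hochberg adjustment over all tested probe sets), 177 (1.05%) higher and 51 (0.303%) lower at 42 °C. Scaling each array to its spikes instead, which moved the median change of all tested probe sets from -0.08 to -0.56, turned that split to 84 higher and 410 lower, with 134 of the 228 still called. With array weights 2000 were called, 885 higher and 1115 lower, so that neither the number of calls nor the balance of rises over falls held under every fit. Called rises reached larger sizes than called falls. The median called rise was 2.94-fold and the median called fall 2.63-fold, 51 rises and 8 falls were at least 4-fold, and 13 rises and 0 falls at least 16-fold. The smallest called change was 1.66-fold. Called rises went from a median signal of 457 at 32 °C to 1803 at 42 °C, and called falls from 972 to 295.

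The rises did not come mainly from dim transcripts. When tested probe sets were divided into 4 bins of equal size by their mean log2 level at 32 °C, 15 of the 177 rises lay in the lowest bin, 46 in the next, 58 in the one above and 58 in the highest. Of the 51 falls, 28 lay in the highest bin and 0 in the lowest, where the scale leaves little room for one. A fit without the filter, over all 24029 probe sets, called 188, of which 3 were among the dim ones left out.

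**Figure D2:**
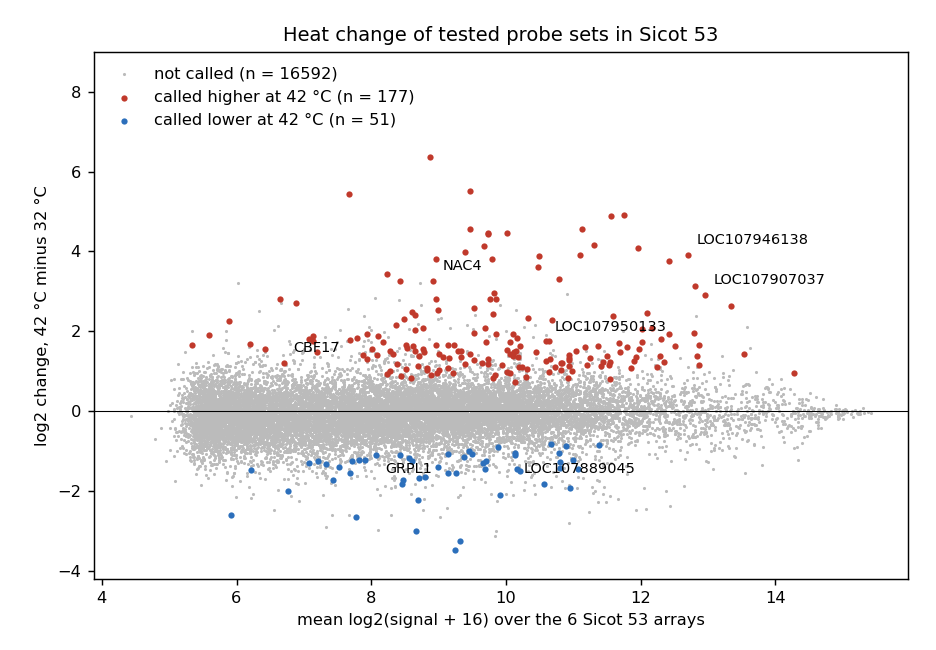
Log2 change with heat in Sicot 53 (42 °C minus 32 °C) against the mean log2(signal + 16) over the 6 arrays, 1 point per tested probe set, with the called rises in red (177), the called falls in blue (51) and called genes with a symbol labelled. Called rises reach further from 0 than called falls and are spread over most of the range of levels.

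Rises did not outnumber falls among changes of every size. Over all tested probe sets the median log2 change was -0.08, 42.7% had a positive value, and values at least 2-fold lower (740) were more frequent than values at least 2-fold higher (486), whether or not they passed. At 4-fold and more, 85 were higher and 47 lower. The arrays of the groups were apart at 3510 probe sets (20.9%), 1541 higher (9.16%) and 1969 lower (11.7%) at 42 °C. An unadjusted p under 0.05 was reached by 1121 probe sets with higher values (6.66%) and 1491 with lower values (8.86%).

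Replicate 2 at 42 °C, the array with the high ubq11 ratio, was the lowest heated array at 569 (76.9%) of the 740 probe sets at least 2-fold lower, a set chosen in part by its own values. At the 111 probe sets called lower in Sicala 45 it was the lowest at 48.6%, at a median of -0.17 log2 units relative to the mean of the other 2. At the 193 called higher there it was the highest at 50.3%, at a median of 0.17. Over all tested probe sets this array was the lowest heated one at 40.3% and the highest at 37.3%. Without it, 437 probe sets had values at least 2-fold higher and 491 at least 2-fold lower, and 66 were called, 60 higher and 6 lower. When each array's 3'/5' ratio, averaged on the log2 scale over ubq11 and actin, entered the model as a covariate, 149 were called, 128 higher and 21 lower.

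The number of calls turned on single arrays. Without replicate 1 or 3 at 32 °C, 18 and 50 probe sets were called, and without replicate 3 at 42 °C 87. Without replicate 2 at 32 °C, the control that lay towards the heated level, 206 were called, 164 higher and 42 lower, of which 162 were among the 228. Without replicate 1 at 42 °C 265 were called, with 111 falls in place of 51. Across the omissions of each of the 12 arrays in turn, 17 probe sets stayed called in every fit, 14 higher and 3 lower. NAC4 and LOC107950133 were the members of these 17 with a gene symbol.

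Both called rises among genes with a name, NAC4 and CBF17, were of transcription factors. NAC4 (LOC107916546) encodes a NAC-domain factor, of a plant family known for roles in stress and senescence. Its signals were 99.1, 218 and 125 in replicates 1, 2 and 3 at 32 °C and 996, 1745 and 1905 at 42 °C. All heated arrays lay well above all controls, of which replicate 2 was the highest. NAC4 rose 9.65-fold, at a log2 change of +3.27 ± 0.33 SE (n = 3 arrays a group, limma adjusted p = 0.00209). The call was kept in all 24 alternative fits, with values from +2.79 to +3.64. The other NAC4 probe set was dimmer, at 47.7, 47.2 and 43.1 against 144, 163 and 256, also without overlap (log2 change +1.68 ± 0.38 SE, adjusted p = 0.055).

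NAC2 (LOC107962533), another NAC factor, had signals of 1902, 3029 and 1835 at 32 °C and 4925, 3407 and 6404 at 42 °C. The groups were apart, with control replicate 2 and heated replicate 2 close to each other, and the change did not pass (log2 change +1.11 ± 0.27 SE, limma adjusted p = 0.0755). Without control replicate 2 it was +1.34 with a limma adjusted p of 0.0415. Leaving out the highest control could only enlarge the rise, and no other single omission brought this probe set under 0.05. The other NAC2 probe set had +1.0 ± 0.24 SE (adjusted p = 0.0765). Of 8 NAC probe sets tested, from 5 named genes, 1 rose (NAC4) and 5 had groups apart, all with the heated arrays higher. Over all tested probe sets 1.05% were called higher and 9.16% were apart that way. The 5 were both probe sets of NAC4, both of NAC2 and 1 of NAC7, so they stand for fewer genes than 5. The median log2 change of the 8 was +0.89, where that of all tested probe sets was -0.08. Under scaling to the spikes these medians were +0.41 and -0.56. Of the lower values, NAC10 and 1 of the NAC7 probe sets had -0.10 and -0.01.

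CBF17 (LOC107913841) belongs to the C-repeat binding factors, AP2-domain proteins best known from the cold response of Arabidopsis. Its signals were 43.2, 62 and 54.4 at 32 °C and 181, 146 and 108 at 42 °C, low on every array and without overlap. CBF17 rose 2.30-fold, a log2 change of +1.20 ± 0.26 SE with a limma adjusted p of 0.047. The call stood at the edge of the threshold and ended in 16 of 23 alternative fits, with an adjusted p of at most 0.196. Another probe set of this locus was far brighter, at 13699, 13390 and 11356 against 13620, 13052 and 15356, with overlapping groups (+0.13 ± 0.20).

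RAV1 (LOC107946446), whose protein carries both an AP2 and a B3 domain for binding DNA, had signals of 547, 843 and 167 at 32 °C and 1382, 1537 and 2056 at 42 °C. The groups were apart, but the controls were widely spread, with replicate 3 far below the others, and the change did not pass (log2 change +1.89 ± 0.54 SE, limma adjusted p = 0.127). The other RAV1 probe sets had +0.75 ± 0.26 and +0.98 ± 0.57. Of 9 probe sets for RAV, ERF, CBF and DREB factors, from 6 named genes, 1 rose (CBF17), 0 fell, and 7 had positive values (1.05%, 0.303% and 42.7% of all tested did). RAV1 and CBF17 each gave several of these 7. The median of the 9 was +0.66, which was +0.18 under scaling to the spikes. Of 11 for MYB, MADS, WRKY and other factors, 0 passed (1.36% of all tested did), with a median of -0.14. Among them the MADS-box gene MADS-3 had +0.68 ± 0.26 with groups apart, and the homeobox gene HOX3 had -0.93 ± 0.44. The MYB gene GHMYB38 had -0.96 ± 0.41 on a dim probe set and -0.14 ± 0.35 on a brighter one.

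**Figure D3:**
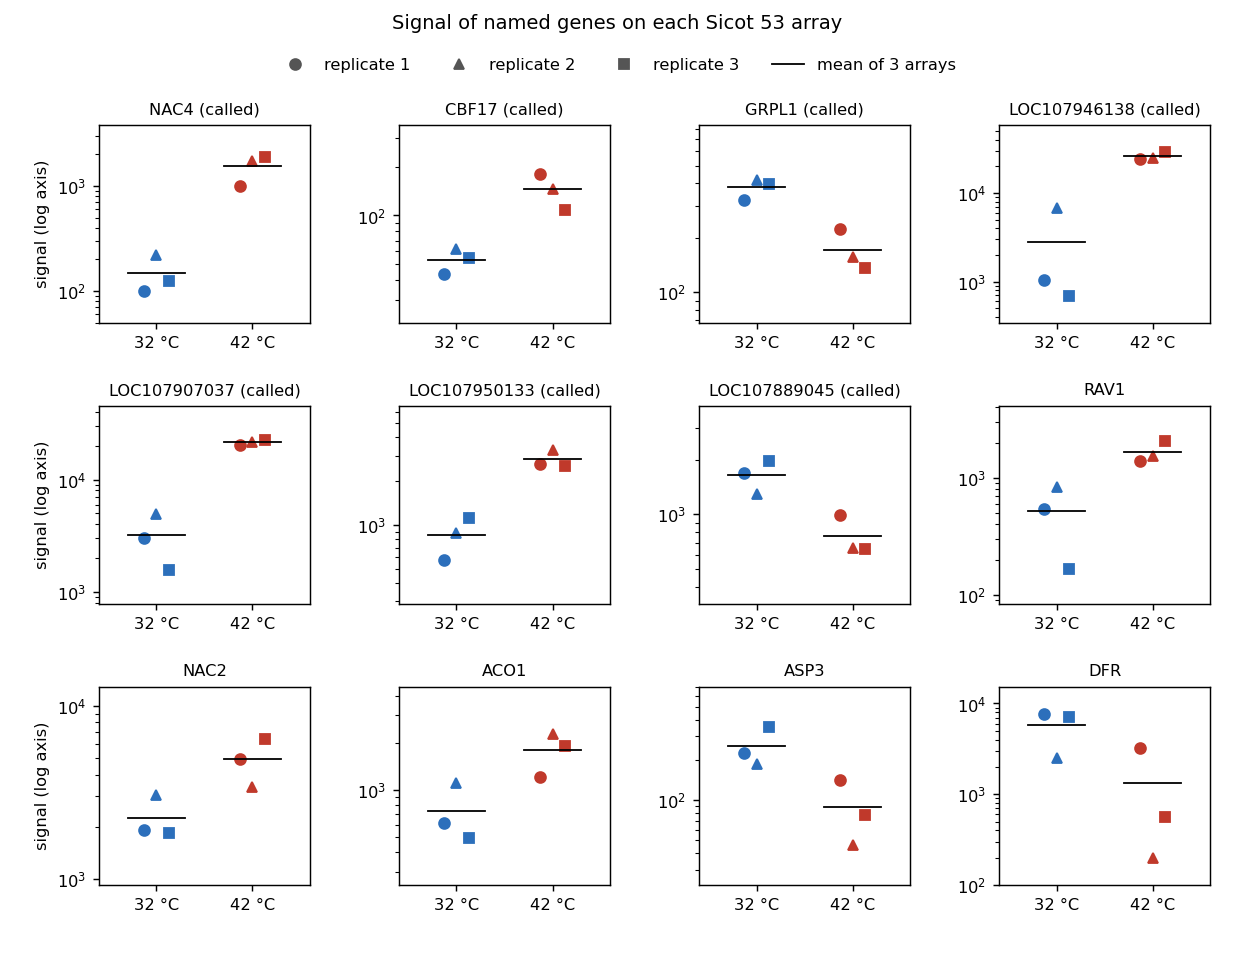
Signal (log axis) of 12 genes on each of the 3 arrays at 32 °C (blue) and at 42 °C (red) in Sicot 53, with replicates as symbols and group means as lines. The called genes have no overlap between temperatures, and DFR spreads widely at 42 °C. Control replicate 2 is the highest control for NAC4, CBF17, LOC107946138, LOC107907037, RAV1, NAC2 and ACO1, and also for GRPL1, which is lower at 42 °C.

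Called genes with a symbol but no name include the brightest responders. LOC107946138 had signals of 1055, 6724 and 682 at 32 °C and 23962, 24653 and 29277 at 42 °C. Control replicate 2 stood far above the other controls and still below every heated array. It rose 15.1-fold, at +3.92 ± 0.80 SE on the log2 scale with a limma adjusted p of 0.0357, and 7 of the 12 omissions of single arrays ended the call. LOC107907037 had 3049, 4966 and 1565 at 32 °C and 20513, 21779 and 22519 at 42 °C and rose 7.47-fold (+2.90 ± 0.44, adjusted p = 0.00982). Its heated arrays lay close together and its controls did not, and its call ended only without control replicate 1 (adjusted p = 0.0578).

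LOC107950133 had 574, 887 and 1111 at 32 °C and 2645, 3278 and 2558 at 42 °C. It rose 3.35-fold, at +1.74 ± 0.24 SE on the log2 scale with a limma adjusted p of 0.0076, with groups far apart and control replicate 2 in the middle of its group. LOC107889045 had 1687, 1288 and 1970 at 32 °C and 994, 657 and 643 at 42 °C. It fell 2.14-fold, at -1.10 ± 0.23 SE with an adjusted p of 0.0418, and 9 of 12 omissions of single arrays ended the call.

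Probe sets without a single gene symbol made up 221 of the 228 calls and can be described only by their values. The largest rise of all went from 9.74, 107 and 27.5 to 2909, 4482 and 5876, or 82.5-fold (log2 change +6.37 ± 0.59 SE, limma adjusted p = 0.00209). Its controls were close to the pseudocount on replicates 1 and 3, so the size of the fold depends on the processing. It was called in all 24 alternative fits, with log2 changes from +5.36 to +7.19. The next went from 74.8, 244 and 32.2 to 3533, 13320 and 2331, or 46.0-fold (+5.52 ± 0.88), with heated replicate 2 far above the others. Its log2 change ran from +4.79 to +6.18 over the alternative fits, and its call ended without control replicate 1 or 3 (adjusted p at most 0.0652). In both, control replicate 2 was the highest control. The probe sets with the largest falls ran alike. The first had 2503, 1167 and 2742 at 32 °C and 174, 190 and 136 at 42 °C and fell 11.1-fold (-3.48 ± 0.35). The second had 2686, 1068 and 2626 against 187, 194 and 188 and fell 9.62-fold (-3.27 ± 0.35). Control replicate 2 was the lowest control in both, well under the others. Both were called in all 24 alternative fits.

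Among named genes with a fall, GRPL1 (LOC107953490, also listed as rgp1) passed on 1 of its 3 tested probe sets. That probe set had signals of 324, 419 and 395 at 32 °C and 224, 157 and 135 at 42 °C, without overlap. GRPL1 fell 2.13-fold there (log2 change -1.09 ± 0.24 SE, limma adjusted p = 0.047), a call that ended in 16 of 24 alternative fits (adjusted p at most 0.18). The other probe sets had -1.15 ± 0.36, with groups apart, and -0.69 ± 0.34, with overlap.

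The list of phosphatases, apyrases and nutrient enzymes was mostly lower in value, and 0 of its 5 probe sets passed (1.36% of all tested did). ASP3 (LOC107901245) had signals of 225, 188 and 352 at 32 °C and 142, 46.1 and 77.1 at 42 °C, apart, with a log2 change of -1.43 ± 0.36 SE (limma adjusted p = 0.0821). PAP1 had 625, 863 and 501 against 393, 127 and 316 (-1.30 ± 0.45, adjusted p = 0.195), with heated replicate 2 the lowest, while its other probe set had +0.09 ± 0.42. The apyrase APY1 and PAP10 had -0.71 ± 0.30 and -0.87 ± 0.39. Of the 5 probe sets, 4 had an unadjusted p under 0.05 with a lower value (8.86% of all tested probe sets did), and the median was -0.87. Heated replicate 2, the array with the ubq11 ratio of 41.5, was the lowest heated array at each of these 4. Without it, ASP3 had a log2 change of -1.11, PAP1 -0.85, PAP10 -0.41 and APY1 -0.55. These values are nearer to 0, a direction fixed beforehand because the array left out was the lowest heated one. With the 3'/5' ratio as covariate on all arrays, ASP3 had -1.04, PAP1 -0.77, PAP10 -0.33 and APY1 -0.56 (limma adjusted p at least 0.142). The other PAP1 probe set had +0.56 in that fit.

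The 5 tested flavonoid and phenylpropanoid probe sets all had negative values, where 42.7% of all tested had a positive one. Of the 5, 0 passed (1.36% of all tested did). They stayed negative under quantile normalization and median centring. Scaling to the spikes lowered every value, so the sign there was fixed beforehand. CHS2 probe sets left out as dim had -0.30, -0.09 and +0.09 in the fit without the filter. Dihydroflavonol reductase DFR, an enzyme on the way to anthocyanins and condensed tannins, had 7574, 2535 and 7117 at 32 °C and 3193, 199 and 560 at 42 °C. The groups overlapped, since heated replicate 1 exceeded control replicate 2, and the log2 change was -2.81 ± 1.12 SE (limma adjusted p = 0.261). The chalcone synthases CHS6, CHS2 and CHS3, which act at the entry to the pathway, had -1.30 ± 0.78, -1.04 ± 0.48 and -0.65, and the cinnamoyl-CoA reductase CCR1 of the lignin branch -0.24 ± 0.23. The median of the list was -1.04. The sterol methyltransferases SMT2-2, SMT2-1 and SMT1 had -1.01 ± 0.30, -0.77 ± 0.33 and -0.22 ± 0.34, with groups apart for SMT2-2 alone.

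Ethylene genes split in sign. ACO1 (LOC107905899), whose name is that of ACC oxidase, the enzyme that forms ethylene from its precursor, had signals of 613, 1107 and 493 at 32 °C and 1207, 2266 and 1898 at 42 °C. The groups were apart, with control replicate 2 just under heated replicate 1, and the log2 change was +1.30 ± 0.32 SE (limma adjusted p = 0.0802). Without control replicate 2, the highest control, it was +1.63, with a limma adjusted p of 0.0237. Without heated replicate 1, the lowest heated array, it was +1.56 (adjusted p = 0.0473). Each of these omissions could only enlarge the rise, and no other single omission brought this probe set under 0.05. ACO3 had +0.60 ± 0.29, ACO1 of a different locus (LOC107954048) -0.82 ± 0.67, and ACS1, which shares its name with ACC synthases, -0.47 ± 0.21. Of 7 ethylene probe sets 0 passed (1.36% of all tested did), and the median of +0.37 turned to -0.11 under scaling to the spikes.

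Cell wall genes showed no common direction, with 17 of 33 probe sets positive (42.7% of all tested were) and a median of +0.01. Of the 33, 0 were called higher and 1 lower, the GRPL1 probe set above (1.05% and 0.303% of all tested were). The xyloglucan endotransglucosylase XTH3, which cuts and rejoins wall polysaccharides, had 781, 1620 and 374 at 32 °C and 1499, 5405 and 3213 at 42 °C, with overlap (log2 change +1.90 ± 0.67 SE, limma adjusted p = 0.204). The fasciclin-like gene FLA6 had -1.19 ± 0.60 and -1.01 ± 0.44 on its probe sets. Of 6 class III peroxidases 0 passed (1.36% of all tested did), from pod1 at -1.29 ± 0.36, with groups apart, to pod5 at +0.78 ± 0.47. The glutathione S-transferases had -1.08 ± 0.38, with groups apart, -0.76 ± 0.53 and +0.05 ± 0.43.

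**Figure D4:**
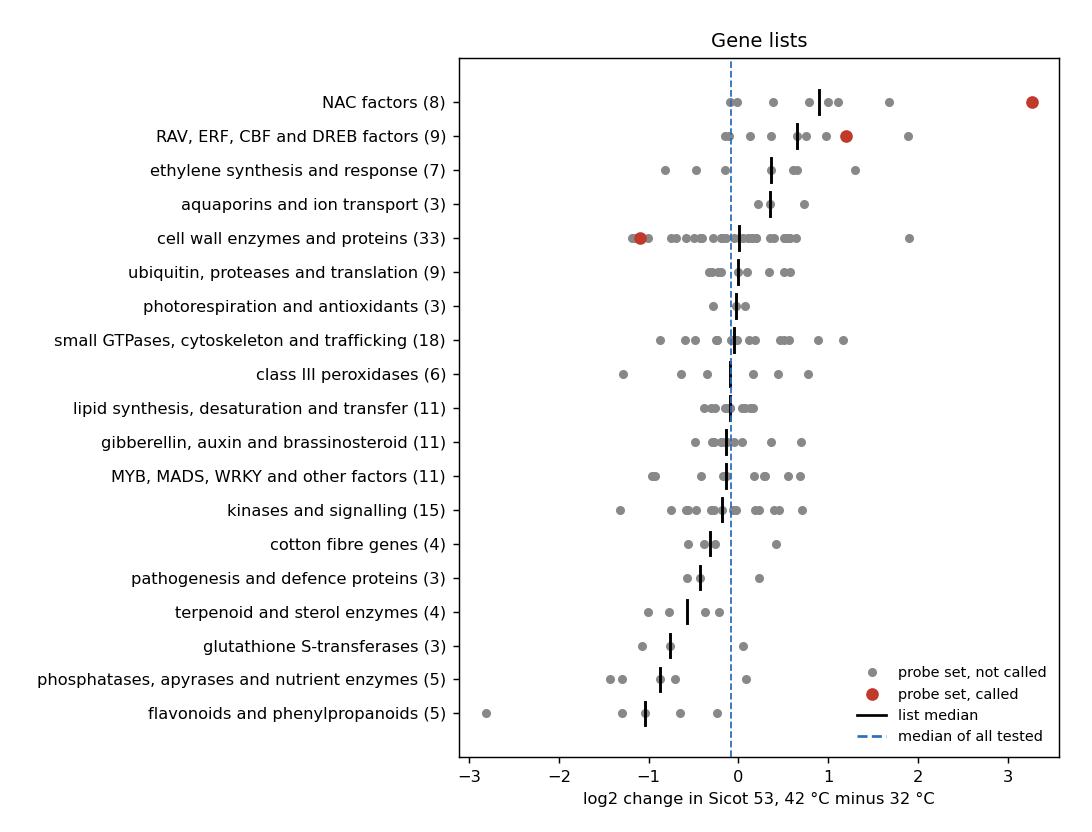
Log2 change with heat in Sicot 53 for each tested probe set of the gene lists with 3 or more, with the number tested in brackets, the list median (black bar) and the median of all tested probe sets (-0.08, dashed). NAC factors have the highest median (+0.89) and flavonoids and phenylpropanoids the lowest (-1.04), and the 3 called probe sets are in red.

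Rubisco activase and the photorespiration and antioxidant genes had values smaller than their SE, so that neither a change nor its absence was shown. Rubisco activase RCA1 had 45772, 45752 and 29529 at 32 °C and 33455, 37803 and 40694 at 42 °C, with overlapping groups (log2 change -0.09 ± 0.28 SE, limma adjusted p = 0.914). The brightest probe set of each of these 6 arrays had 33458 to 52186, so that RCA1 lay near the top of the scale. Catalase CAT2, superoxide dismutase CSD2a and glycolate oxidase GOX, of peroxide and superoxide removal and of photorespiration, had -0.28 ± 0.30, +0.07 ± 0.19 and -0.03 ± 0.29. Of the leaf markers, RCA1 and GOX were the only ones with a named probe set, and both were bright on every array (GOX from 1491 to 2824). Of markers of other cell types, the fibre gene E6 had signals of 413 to 956 over the 6 arrays (+0.42 ± 0.30) and Fb2 -0.56 ± 0.29. Of 4 seed storage probe sets 3 were left out as dim and LegB-C134 had -0.18 ± 0.44. The late embryogenesis genes, also taken as seed markers, were not dim and had positive values, Lea5-D +1.20 ± 1.14 and Lea14-A +0.78 ± 0.36.

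The late embryogenesis gene Lea5-D, of a class of protective hydrophilic proteins, had 1406, 2969 and 535 at 32 °C and 679, 15566 and 2622 at 42 °C, with heated replicate 2 far above all other arrays and overlapping groups (log2 change +1.20 ± 1.14 SE). Lea14-A had +0.78 ± 0.36, the vacuolar sodium-proton antiporter NHX1 +0.74 ± 0.45, the drought-induced zinc-finger gene Di19-2 +0.71 ± 0.23 with groups apart, and the small GTPase Rac9 +1.17 ± 0.47 with groups apart. The acyl-ACP thioesterase FatB1 had +0.85 ± 0.31 and CMK1 +0.88 ± 0.27, both with groups apart, though another FatB1 probe set had -0.12 ± 0.20. Among lower values with groups apart, the vacuolar GTPase Rab7 had -0.87 ± 0.25, PK1 -0.75 ± 0.24 and GS -0.84 ± 0.33. The CONSTANS-like gene COL5-D had -1.0 ± 0.46 and the calcium sensor CBL3 -0.58 ± 0.24, also with groups apart. None of these passed (limma adjusted p at least 0.13). Of 15 probe sets for kinases and signalling, 18 for small GTPases and cytoskeleton, 11 for lipids and 11 for gibberellin, auxin and brassinosteroids, 0 passed (1.36% of all tested did). Their medians were -0.19, -0.05, -0.10 and -0.13.

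In all, 3 of the 258 named probe sets tested were called, beside 1.36% of all tested, 26 had all heated arrays higher and 22 all heated arrays lower (9.16% and 11.7% of all tested did), and their median log2 change was -0.09. Of the 26 lists 3 contained a call, and 3, for heat shock proteins and factors, had no named probe set.

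The arrays of Sicala 45, with controls and heated leaves of their own, give the same measure in other leaves. They also entered the estimate of the spread on which the Sicot 53 calls rest, so they are not fully independent of the choice. The 6 Sicot 53 arrays alone called 60 probe sets, 58 of them among the 228. In Sicala 45 the ubq11 3'/5' ratio was 6.39, 24.6 and 11.2 at 42 °C and 6.14, 5.82 and 10.7 at 32 °C. These groups overlapped, and heated replicate 2 was again the highest. Whether a raised ratio shares in the agreement between the cultivars was not tested. Of the 177 rises in Sicot 53, 176 had a positive value in Sicala 45 and 173 had its heated arrays above its controls (9.58% of tested probe sets did), with a median log2 change of +1.49. All 51 falls had a negative value there, 48 had groups apart downward (11% of tested probe sets did), and the median was -1.23. In Sicala 45, 304 probe sets (1.81%) were called, 193 higher (1.15%) and 111 lower (0.66%), and 154 calls were shared, which is 67.5% of the Sicot 53 calls and 50.7% of the Sicala 45 calls. The exception in sign was a probe set without a gene symbol, chosen after its values were seen. It had 764, 624 and 595 at 32 °C and 1030, 1336 and 1358 at 42 °C in Sicot 53 (log2 change +0.89 ± 0.18 SE, limma adjusted p = 0.0378) and -0.03 ± 0.18 in Sicala 45.

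The difference between the heat changes of the cultivars passed at 0 of 16820 probe sets in limma, and 321 reached an unadjusted p under 0.05. Among the 228 called in Sicot 53, 11 had an unadjusted p under 0.05 for that difference, and 138 had the larger change in Sicot 53, the cultivar in which they were chosen. The 95% interval of the difference extended a median of 0.82 log2 units to each side and lay within 1 log2 unit of 0 for 94 of them. For NAC4 the difference, Sicot 53 minus Sicala 45, was -0.12 (95% interval -1.14 to 0.90), for CBF17 0.36 (-0.44 to 1.16) and for LOC107946138 -0.86 (-3.32 to 1.59). For LOC107950133 it was 0.73 (0.01 to 1.45), and for the called GRPL1 probe set -0.69 (-1.42 to 0.04), while another GRPL1 probe set had 1.5 (0.45 to 2.56). None of these passed after adjustment over all tested probe sets. RAV1 and NAC2, called in Sicala 45 at +2.99 and +1.38 and not in Sicot 53, had differences of -1.10 (-2.77 to 0.57) and -0.27 (-1.11 to 0.56), so that neither a difference nor its absence was shown.

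**Figure D5:**
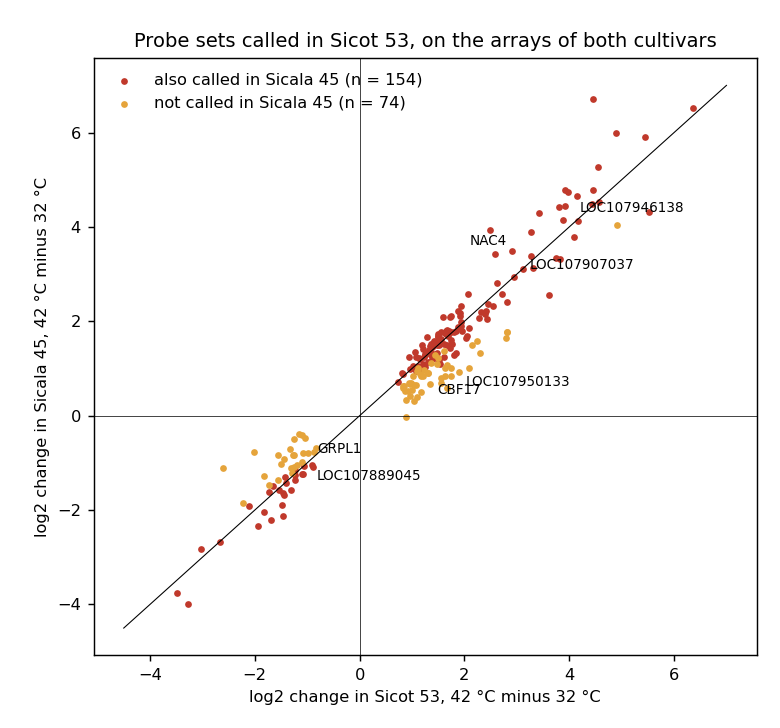
Log2 change with heat in Sicala 45 against that in Sicot 53 for the 228 probe sets called in Sicot 53, with the line of equal change. All but 1 lie in the quadrants of equal sign, and 154 (red) were also called in Sicala 45.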

How the data were processed

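Per the labels' protocols, a hot borate extraction gave the leaf RNA, which was biotin-labelled for Affymetrix Cotton arrays. The authors deposited 1 linear intensity per probe set and array, from MAS5 (version not stated) per the submitters' processing notes. A trimmed mean (2nd to 98th percentile) of 500 on every array shows scaling to 1 target. Further steps are not given in the sources used here. Values were transformed to log2(signal + 16), where changes of dim probe sets come out too small. Left out were 103 AFFX controls and the dimmest 30% by mean over 12 arrays. All 4 groups entered 1 model in limma 3.58.1 under R 4.3.3 (lmFit, eBayes with an intensity trend), two-sided, with Benjamini-Hochberg adjustment and a threshold of 0.05. The script was tested on simulated data. Precision is limited by having 3 arrays a group. Errors are SE of the model. "Apart" means that all arrays of 1 group exceeded all of the other.

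Names came from the platform annotation, updated by gene ID from RefSeq's gene list for Gossypium_hirsutum_v2.1 (697 probe sets with 1 symbol, all matched, 46 with several, 23389 with none listed, 318 with a name). Cotton is tetraploid, and IDs that end in _s_at, _x_at or _a_at mark probe sets that may hit more than 1 transcript. The comparison, gene lists, alternatives and naming rule were chosen with earlier results of these data known. The rule took called probe sets with a symbol (up to 12 per direction), the 12 largest changes per direction among named genes with groups apart, up to 4 members per list of lowest p, Rubisco activase, the 2 largest unannotated calls per direction, any called among the 5 brightest, which were 0, and other probe sets of these genes. Same-numbered arrays of the 2 temperatures had deviations from their group means that correlated at r = -0.10, -0.29 and -0.36, so the replicate numbers were not taken as pairs. The alternatives were other scalings, pseudocounts and filters, eBayes without the trend, array weights, the 6 arrays alone, the replicate block, the 3'/5' covariate and leaving out each array. Figures were drawn with matplotlib 3.10.9.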

Additional observations from a re-analysis of the deposited data

How the results depend on the processing

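Of 11 named or singled-out probe sets called, NAC4, the largest rise and the largest falls without a symbol kept their calls in all 24 alternative fits, and no called value changed sign in any. Signs turned for 26 of 106 probe sets covered by the naming rule, none of them called in the main setting. Against 228 calls (177 higher, 51 lower), scaling to the poly-A spikes gave 494 (84 higher, 410 lower) and moved the median change from -0.08 to -0.56, with 134 calls shared. Array weights, which ran from 0.437 for heated replicate 2 to 5.10 for control replicate 1 among the Sicot 53 arrays, gave 2000 (885 higher, 1115 lower). The 6 Sicot 53 arrays alone gave 60 (52 higher, 8 lower), the 3'/5' ratio as covariate 149 (21 lower) and eBayes without the trend 27 lower. Quantile normalization and median centring gave medians of -0.0072 and 0.0069. With the replicate number as a block (replicate block), 165 were called and 31 lower. Leaving out each of the 12 arrays gave 18 to 276 calls, 15 to 208 higher and 3 to 111 lower, medians of -0.10 to -0.06, and 0 to 1 calls for the cultivar difference. Omitting Sicala 45 arrays, which only enter the spread, gave 20 falls without 32 °C replicate 1, 25 without replicate 2, 30 without replicate 3 and 33 without 42 °C replicate 2, and 1 call for the cultivar difference without 42 °C replicate 3. Between 188 and 263 were called without the filter, with a 50% filter, or with a pseudocount of 1 or 64. Under array weights, rises of RAV1, NAC2, ACO1, MADS-3, Di19-2, XTH3 and the other NAC4 probe set were also called. Falls gained there were of ASP3, pod1, GST, DFR, CHS2, SMT2-2, SMT2-1, PK1, GHMYB38, HOX3, ACS1, MPK3, CBL3, Fb2 and another GRPL1 probe set. Scaling to the spikes added falls of ASP3, pod1, Rab7, ACS1 and MPK3.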

Other observations

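Of the 60 named probe sets left out as dim, 0 were called in the fit without the filter, and the largest log2 change among them was 1.05 in size.

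Called probe sets rarely shared a number in the array's own probe set IDs. The 228 calls carried 224 such numbers, and the 4 numbers with several calls each had them in 1 direction. The 99 tested probe sets that shared a number with a call without being called had its sign in 73 cases. These cases pool numbers with called rises and numbers with called falls. Over all tested probe sets 42.7% had a positive value, which is the matching share for the called rises only. A shared number does not always mean the same gene, as the called GRPL1 probe set and one of sad1 carry the same number. Probe sets ending in _s_at, which can match several gene copies, made up 38.2% of the calls and 40.7% of those tested.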
